A study of Mus musculus with 4 samples.

Results

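Cxcl9-high interferon-responsive reticular cells are lymph node stromal cells that carry several transcripts of Cxcl9, a chemokine for CXCR3-bearing T cells, together with interferon-induced GTPase genes. They were chosen by their raw counts of unique molecular identifiers (UMIs, one per captured RNA molecule): at least 3 UMIs of Cxcl9, a UMI of at least 2 of the 6 genes Gbp4, Gbp6, Igtp, Iigp1, Gbp2 and Serpina3f, a UMI of at least 1 of the 4 fibroblast genes Pdgfra, Pdgfrb, Col1a1 and Col3a1, and no UMI of the endothelial gene Pecam1 or the leukocyte gene Ptprc. Of 46638 cells with at least 500 genes, at least 1000 UMIs and at most 10% mitochondrial UMIs, 3535 met the rule. Another 38317 cells met its fibroblast and exclusion terms but not all of its Cxcl9 and interferon terms, and they are called other mesenchymal cells below. The rule uses measured values, so the levels of its genes are given as a description.

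The cells came from droplet 3′-end single-cell RNA sequencing of live stromal cells negative for CD45 and CD31, sorted from peripheral lymph nodes of female C57BL/6 mice aged 12 weeks. Notch2 cKO mice, which carry floxed Notch2 alleles and a Cre recombinase under control of the Ccl19 promoter, were set against controls, and each of 2 batches gave 1 library per genotype. In batch 1, control 1 was Ccl19-Cre x R26R-EYFP and Notch2 cKO 1 carried Ccl19-Cre, Notch2 fl/fl and R26R-EYFP, each a pool of 6 mice that were not littermates across the groups. In batch 2, control 2 was Notch2 fl/fl by its genotype label, although its title names Ccl19-Cre, and Notch2 cKO 2 was Ccl19-Cre x Notch2 fl/fl, each a pool of 3 mice from shared litters. The controls therefore differ from each other in Cre, reporter and floxed alleles, and the pool of mice is the replicate (n = 2 per group). Which mouse a cell came from was not analysed here, so no p-value measures the spread between mice, and all concern these pools only. Those from edgeR also borrow their estimate of variability from other genes, so they do not measure the spread between pools alone.

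Fibroblastic reticular cells build the scaffold of the lymph node's T cell zone and supply the chemokines CCL19 and CCL21 and the survival factor IL-7. Interferon-gamma, made mainly by T and NK cells, binds the receptor chains IFNGR1 and IFNGR2, and signalling through the kinases JAK1 and JAK2 leads to gamma-activated sites (GAS) in DNA and induces the transcription factor IRF1, CXCL9, CXCL10, guanylate-binding proteins, immunity-related GTPases and MHC molecules. Type I interferons bind IFNAR1 and IFNAR2 and act on interferon-stimulated response elements (ISRE).

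The start regions of 5 of these genes are shown because 2 of them (Cxcl9, Igtp) select the cells and 3 (Cxcl10, Irgm1, Irf1) are measured below. Each runs from 250 bases before to 50 after the start of transcription, 5′ to 3′ on the gene's strand, from RefSeq on GRCm38.p6. They lie at chr5:92328030-92328329 (minus strand, Cxcl9), chr5:92348840-92349139 (minus, Cxcl10), chr11:58199306-58199605 (plus, Igtp), chr11:48871371-48871670 (minus, Irgm1) and chr11:53769764-53770063 (plus, Irf1, the first of 2 starts listed). Capitals mark letters matching GAS (TTCNNNGAA) or ISRE (GAAA, any 2 bases, then GAAA) on either strand, and overlapping ISRE matches run together.
Cxcl9: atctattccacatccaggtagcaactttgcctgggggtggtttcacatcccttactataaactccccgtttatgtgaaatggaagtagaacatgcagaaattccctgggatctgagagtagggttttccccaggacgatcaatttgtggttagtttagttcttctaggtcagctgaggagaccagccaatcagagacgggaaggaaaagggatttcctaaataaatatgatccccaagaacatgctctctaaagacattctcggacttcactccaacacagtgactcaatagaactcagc
Cxcl10: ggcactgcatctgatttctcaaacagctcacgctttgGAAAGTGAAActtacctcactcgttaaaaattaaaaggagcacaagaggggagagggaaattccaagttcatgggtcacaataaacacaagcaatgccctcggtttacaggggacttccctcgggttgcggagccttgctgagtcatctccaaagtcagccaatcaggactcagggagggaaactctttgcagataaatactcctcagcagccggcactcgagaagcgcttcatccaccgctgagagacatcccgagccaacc
Igtp: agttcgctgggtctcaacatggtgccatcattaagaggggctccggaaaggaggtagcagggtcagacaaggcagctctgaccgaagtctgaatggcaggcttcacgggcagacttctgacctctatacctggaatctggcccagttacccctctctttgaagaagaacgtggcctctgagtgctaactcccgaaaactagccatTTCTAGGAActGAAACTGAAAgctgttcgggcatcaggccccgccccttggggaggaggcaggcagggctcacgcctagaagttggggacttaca
Irgm1: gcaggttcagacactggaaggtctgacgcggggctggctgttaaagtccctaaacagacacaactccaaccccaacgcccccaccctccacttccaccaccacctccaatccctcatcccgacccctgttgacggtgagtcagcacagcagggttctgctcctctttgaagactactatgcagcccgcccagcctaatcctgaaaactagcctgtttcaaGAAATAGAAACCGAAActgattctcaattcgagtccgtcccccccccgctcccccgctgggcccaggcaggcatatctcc
Irf1: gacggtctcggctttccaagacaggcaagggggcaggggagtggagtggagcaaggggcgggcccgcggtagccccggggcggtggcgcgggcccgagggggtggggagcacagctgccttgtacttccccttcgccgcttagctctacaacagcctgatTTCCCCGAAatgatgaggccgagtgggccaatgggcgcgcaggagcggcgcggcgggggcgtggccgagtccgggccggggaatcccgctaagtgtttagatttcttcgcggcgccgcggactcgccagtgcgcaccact
The Cxcl9 window held neither pattern. The Cxcl10 window held an ISRE match whose first base is at -213 from the start, Irf1 a GAS match at -90, Igtp a GAS match at -45 with an ISRE match at -34, and Irgm1 ISRE matches at -30 and -24. Of 32851 promoters of this length in the table, 8.3% held the GAS and 3.44% the ISRE pattern. Among the genes higher in members than in depth-matched cells (below), 651 had a promoter in the table, of which 12.44% held the GAS and 11.98% the ISRE pattern, against 8.49% and 3.74% over all genes tested there. A match is a run of letters, not a measured binding site.

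Batch 1 gave 614 members in control 1 and 441 in Notch2 cKO 1, and batch 2 gave 1470 and 1010. Values per library follow in that order below. Their median Cxcl9 count was 9, 9, 11 and 11 UMIs, and the highest count in a cell was 123, 147, 411 and 289. They held 69.3%, 71.8%, 78.6% and 84.0% of all Cxcl9 UMIs of mesenchymal cells. Of the other genes of the rule, the GTPase Iigp1 was detected in 89.6% to 95.3% of members of a library, the guanylate-binding proteins Gbp6 and Gbp2 in 50.6% to 56.6% and 50.1% to 65.8%, and the GTPase Igtp in 40.9% to 60.8%. Gbp4, another guanylate-binding protein, was detected in 18.4% to 44.0% and the protease inhibitor Serpina3f in 20.0% to 57.2%, so neither marked every member. Near-identical GTPase genes (Gbp2 with Gbp2b and Gbp5, Gbp6 with Gbp10, Tgtp1 with Tgtp2, Iigp1 with Gm4951) can share reads, and their single values are uncertain.

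The threshold of 3 Cxcl9 UMIs cut through a continuum. Cells with 2 UMIs that met the other terms numbered 90, 90, 253 and 143, against 80, 50, 171 and 114 members with exactly 3 (same library order). In CPM (UMIs of a gene summed over the cells, relative to all their UMIs, without further scaling), Cxcl10 stood at 1043, 1494, 1540 and 710 just outside the threshold and at 1618, 2166, 1516 and 780 just inside it. Irgm1, a GTPase of vacuolar defence, was at 67.4, 111, 51.8 and 28.8 outside and 83.8, 155, 52.1 and 29.3 inside. Both sides of the threshold thus lay close together for Irgm1 in batch 2, and Cxcl10 was higher inside it in 3 of 4 libraries.

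Within the members many interferon genes rose with the Cxcl9 count, though not each of them in every library. Cells with 20 or more Cxcl9 UMIs had 3303, 3490, 3341 and 2470 CPM of Cxcl10, whereas cells with 3 to 5 had 1615, 1870, 1515 and 822. Cxcl10, Ubd, Gbp5, Irgm1, Tap1, H2-K1, H2-Aa, Cd74 and Isg15 rose in order over the classes of 3 to 5, 6 to 19 and 20 or more UMIs in 4 of 4 libraries, and so did Ccl19 and Madcam1. Irf1, B2m and Cd274 rose in order in 3 of 4 libraries and Socs1 in 2 of 4. The gene of IL-7 fell in order in 3 of 4 libraries, from 141 to 97.3 CPM in control 2, and rose from 96.6 to 107 in control 1 with 121 between. Median depth rose over the classes too, from 2825 to 3266 UMIs per cell in control 1 and from 7734 to 10203 in control 2, and its part in these orders was not tested.

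**Figure D1:**
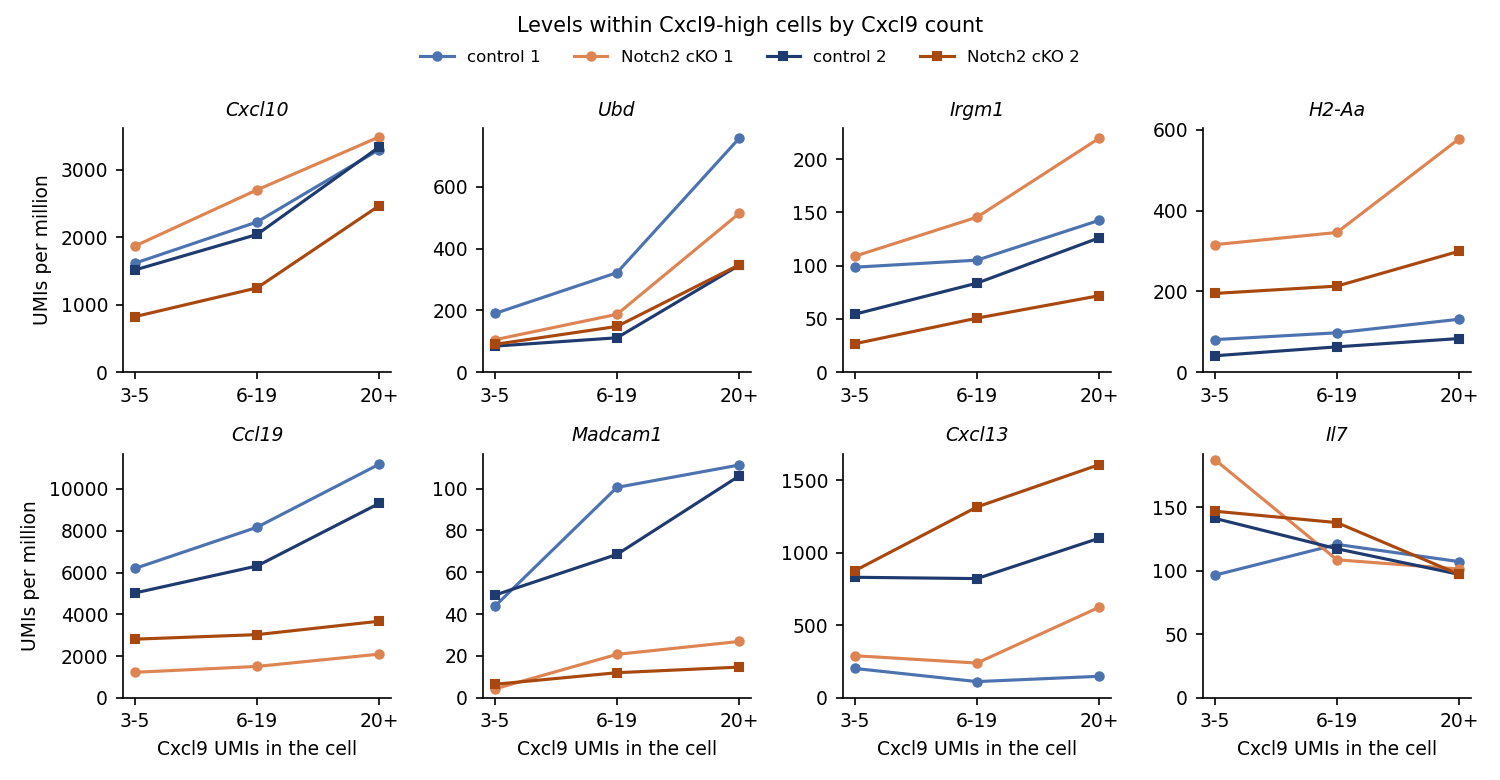
Levels of 8 genes (CPM without further scaling, y axis) in Cxcl9-high cells with 3 to 5, 6 to 19 or 20 or more Cxcl9 UMIs (x axis), 1 line per library. Cxcl10, Ubd, Irgm1, H2-Aa, Ccl19 and Madcam1 rise in every library, and the Notch2 cKO lines lie below the control lines for Ccl19 and Madcam1 and above them for H2-Aa.

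The labels and depth bear on every count of these cells. Library totals ran from 21533049 UMIs in control 1 to 119002408 in control 2, over 8491 to 18482 barcodes, and any 2 libraries shared 18 to 50 barcodes among the cells kept. The members were deeper than other mesenchymal cells, with medians of 3038, 3812, 8658 and 11827 UMIs against 2104, 2926, 5936 and 7167. With the mesenchymal cells of a library split into 4 equal classes of depth, 1.78% to 4.04% of the shallowest were members and 11.1% to 20.9% of the deepest. T-zone reticular markers all gave UMIs in the members of every library (8 of 8 genes), as they did in matched and other mesenchymal cells. All 9 adventitial markers did so as well, so these counts do not set the members apart. Marker lists of other cells summed, in members against matched cells, to 12.3 to 19.2 against 15.5 to 23.9 CPM for 8 macrophage genes, 98.7 to 187 against 74.2 to 174 for 8 dendritic cell genes, 3.39 to 11.8 against 3.39 to 12.4 for 7 T cell genes and 154 to 243 against 180 to 414 for 4 plasma cell genes. The 7 NK cell and ILC genes summed to 61.1 to 1003 against 63.4 to 1096, with Ncr1, Gzmb and Ifng at 0 in members of all 4 libraries. In library order the 7 T cell genes summed to 10.8, 3.39, 11.8 and 6.66 CPM in members against 12.4, 3.39, 6.32 and 5.92. Of 2 T cell genes with enough counts for the edgeR test below, Trac passed as higher in members, beside 6.18% of all genes. The leukocyte lists hold genes that stroma also expresses, as set aside below: Xbp1, Sdc1, Cd68, Fscn1, Rora and Il7r. Among narrower genes of macrophages, dendritic cells and B cells, C1qa, C1qb, C1qc, Adgre1, Itgax, Flt3, Xcr1, Ms4a1 and Cd79b, chosen after their values were seen, summed to 1.03 to 3.04 CPM in members. Members without any UMI of a leukocyte list, those stromal genes set aside, numbered 558 of 614, 373 of 441, 751 of 1470 and 410 of 1010. The part of other cells in the results was tested no further than by leaving such members out. The endothelial markers Cdh5, Kdr, Flt1, Emcn, Tie1 and Egfl7 summed to 0.565 to 4.55 CPM. No cell was removed as a doublet.

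Cxcl9 was also counted in cells outside the mesenchyme, after thinning each cell to 2000 UMIs, since free RNA can give UMIs in any droplet. Some leukocytes make Cxcl9 themselves, so their share is no plain measure of free RNA. A Cxcl9 UMI was found in 0 of 23, 0 of 13 and 0 of 26 epithelial cells of the first 3 libraries and in 6.67% of 30 in Notch2 cKO 2. In control 2 and Notch2 cKO 2, leukocytes gave 4.93% of 142 and 2.19% of 137, and Schwann cells 9.76% of 82 and 1.27% of 79. Other mesenchymal cells gave 17.8%, 9.34%, 11.4% and 6.70% in library order. These lay above the 95% Clopper-Pearson intervals of the leukocytes (2.00% to 9.89% in control 2 and 0.454% to 6.27% in Notch2 cKO 2), but within that of the Schwann cells of control 2 (4.31% to 18.3%) and of Notch2 cKO 2 (0.0320% to 6.85%) and of the epithelial cells of Notch2 cKO 2 (0.818% to 22.1%). These intervals cover counting error only. Median depths before thinning were 4108 and 3372 UMIs in those leukocytes, 3814 and 3877 in the Schwann cells and 6274 and 7423 in the mesenchymal cells.

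Cxcl9-high cells made up 7.16% of 8570 mesenchymal cells in control 1 (95% Clopper-Pearson interval 6.63% to 7.73%) and 9.84% of 14942 in control 2 (9.37% to 10.3%). The Notch2 cKO libraries gave 5.81% of 7589 cells in batch 1 (5.30% to 6.36%) and 9.39% of 10751 in batch 2 (8.85% to 9.96%). Controls averaged 8.50% ± 1.89 and Notch2 cKO libraries 7.60% ± 2.53 (SD, n = 2), a difference of -0.90 percentage points (two-sided exact permutation test, p = 0.667, where 2 against 2 cannot go below 0.333). Within batches the difference was -1.35 points in batch 1 and -0.44 in batch 2. The groups overlapped, and the batches lay further apart than the genotypes. With a stricter filter on cells (at least 1000 genes and 2000 UMIs, at most 5% mitochondrial UMIs) the controls averaged 11.1% ± 0.0521 and the Notch2 cKO libraries stood at 6.66% and 10.3%, below both controls, a difference of -2.58 points (exact permutation p = 0.333).

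With every cell thinned to 1000 UMIs before the rule was applied the shares were 2.01%, 1.75%, 1.55% and 1.12% in the same library order, and batch 2 then had the lower shares. In both batches the Notch2 cKO share was below its control after thinning (-0.27 and -0.44 points, exact permutation p = 0.667). At 2000 UMIs, with shallower cells dropped, the shares were 7.47%, 4.05%, 3.53% and 2.96%. The fibroblast and exclusion terms were also applied after thinning, so the cells counted as mesenchymal changed. At 2000 UMIs they numbered 4939 in control 1 and 10732 in Notch2 cKO 2, beside 8570 and 10751 as counted.

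**Figure D2:**
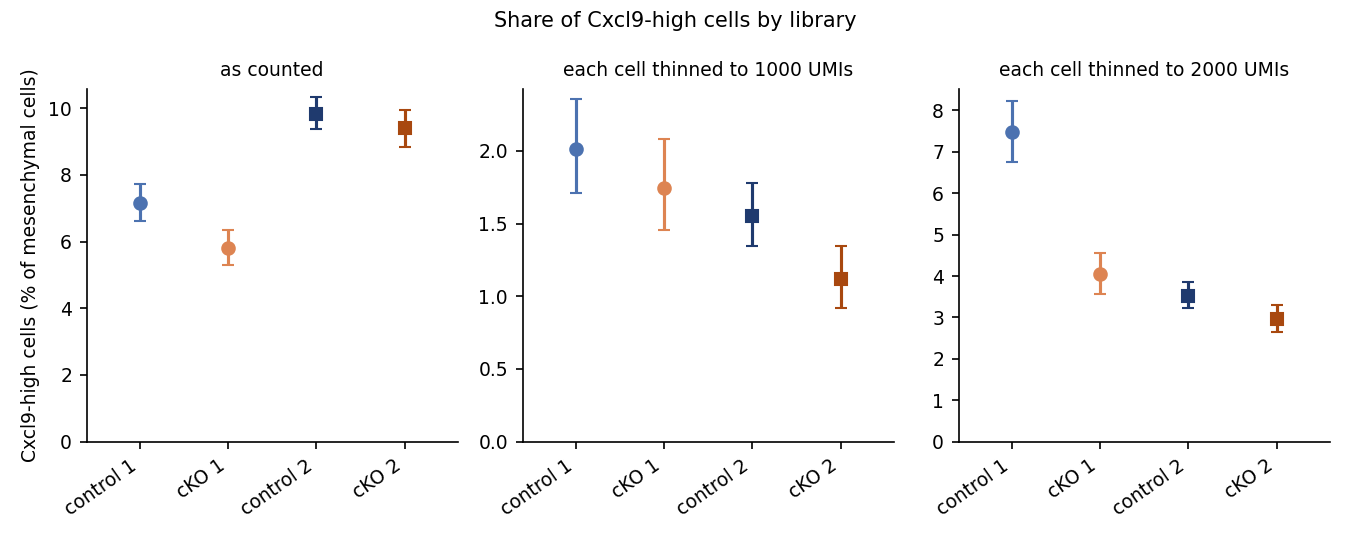
Share of Cxcl9-high cells among mesenchymal cells (percent, y axis) in each library, as counted and with each cell thinned to 1000 or 2000 UMIs, with bars for the 95% Clopper-Pearson interval. In the counts as deposited both batch 2 libraries lie above both of batch 1, and after thinning to 1000 UMIs they lie below.

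To describe the members at equal depth, each was paired with the other mesenchymal cell of its library nearest in total UMIs, and counts summed per library were compared by edgeR's quasi-likelihood test with library as a block. Levels from these sums are in CPM scaled by TMM. Of 13925 genes outside the rule, 861 (6.18%) were higher and 661 (4.75%) lower in members at a Benjamini-Hochberg adjusted p under 0.05. With library size alone as the scaling the split was 658 higher and 928 lower. Because the members were picked on interferon genes of these same cells, what follows describes what the rule collects and supports nothing about it.

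The chemokine and GTPase genes outside the rule that interferon-gamma induces were higher in members almost without exception. Of 17 with enough counts, 16 were higher and 1, the tryptophan-degrading enzyme Ido1 with almost no UMIs, was lower (median log2 difference 2.05, against -0.002 over all genes). Cxcl10, a chemokine sharing the receptor CXCR3 with Cxcl9, had 2389, 2696, 2460 and 1545 CPM in the members of each library and 570, 588, 759 and 318 in matched cells (log2 difference 2.05, SE 0.08). Ubd, a ubiquitin-like protein, had 408, 254, 197 and 201 CPM against 72.9, 62.2, 27.4 and 37.1 (2.51, SE 0.09). Irgm1 had 116, 156, 94.5 and 50.8 CPM against 21.7, 29.7, 25.0 and 11.7 (2.09, SE 0.08). For each of these genes every member sum lay above every matched sum.

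Genes best known as type I interferon targets were also higher, 18 of 20 tested (median log2 difference 1.32). Isg15, a ubiquitin-like modifier, had 162, 68.3, 117 and 60.9 CPM in members and 38.8, 22.4, 31.8 and 18.9 in matched cells (1.82, SE 0.07). Ifit3, an antiviral RNA-binding family member, stood at 14.7 to 20.3 CPM against 2.59 to 4.48 (2.31, SE 0.14). Usp18, the protease that removes ISG15, stood at 45.1 to 71.1 CPM against 53.8 to 72.7 (-0.14, SE 0.08), and Ifit2 at 0.49 (SE 0.22), and neither passed the test. Zbp1, a sensor of unusual nucleic acids, was at 40.5 to 74.5 CPM against 12.1 to 20.7 (1.72, SE 0.10).

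Upstream of these targets the receptor chains and Jak1 did not pass the test, whereas the transcription factors Irf1, Irf8 and Irf9 were higher in members. Ifngr1 had 239, 248, 201 and 264 CPM in members and 223, 237, 196 and 243 in matched cells (0.08, SE 0.05). Jak1 lay at -0.05 (SE 0.05) and Ifnar1 at 0.18 (SE 0.07). Of 21 receptor, JAK-STAT and feedback genes 9 passed as higher by edgeR, with 13 higher and 1 lower at an unadjusted p under 0.05. Irf1 had 528, 753, 765 and 662 CPM against 309, 423, 429 and 303 (0.90, SE 0.06), and Socs1, a feedback inhibitor of JAK kinases, 69.9 to 125 CPM against 42.2 to 81.2 (0.74, SE 0.06). Transcripts of interferon-gamma itself (Ifng) were at 0 UMIs in members and matched cells of all 4 libraries.

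Antigen presentation genes were higher by smaller factors. Of 20 MHC class I genes 18 were higher (median 0.61). The peptide transporter Tap1 led them with 209, 220, 112 and 154 CPM against 78.1, 79.0, 39.5 and 56.5 (1.46, SE 0.05), while the class I heavy chain H2-K1 had 2790, 2432, 1854 and 2173 CPM against 2190, 2148, 1351 and 1564 (0.36, SE 0.05). All 9 tested MHC class II genes were higher (median 0.96), among them Ciita, the class II transactivator, at 2.60 to 19.2 CPM against 0.763 to 3.36 (2.10, SE 0.26). Of 10 checkpoint and costimulation genes 2 were higher, Cd274 (PD-L1, the ligand of the inhibitory receptor PD-1) at 15.2, 23.7, 19.2 and 25.1 CPM against 3.62, 8.40, 4.72 and 3.50 (2.27, SE 0.17), and Lgals9 (0.42, SE 0.06). Of the 12 tested NF-kB and lymphotoxin genes 0 passed the edgeR test, with 1 higher and 3 lower at an unadjusted p under 0.05, and of the 9 tested cell cycle genes 0 passed, with 0 at an unadjusted p under 0.05.

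**Figure D3:**
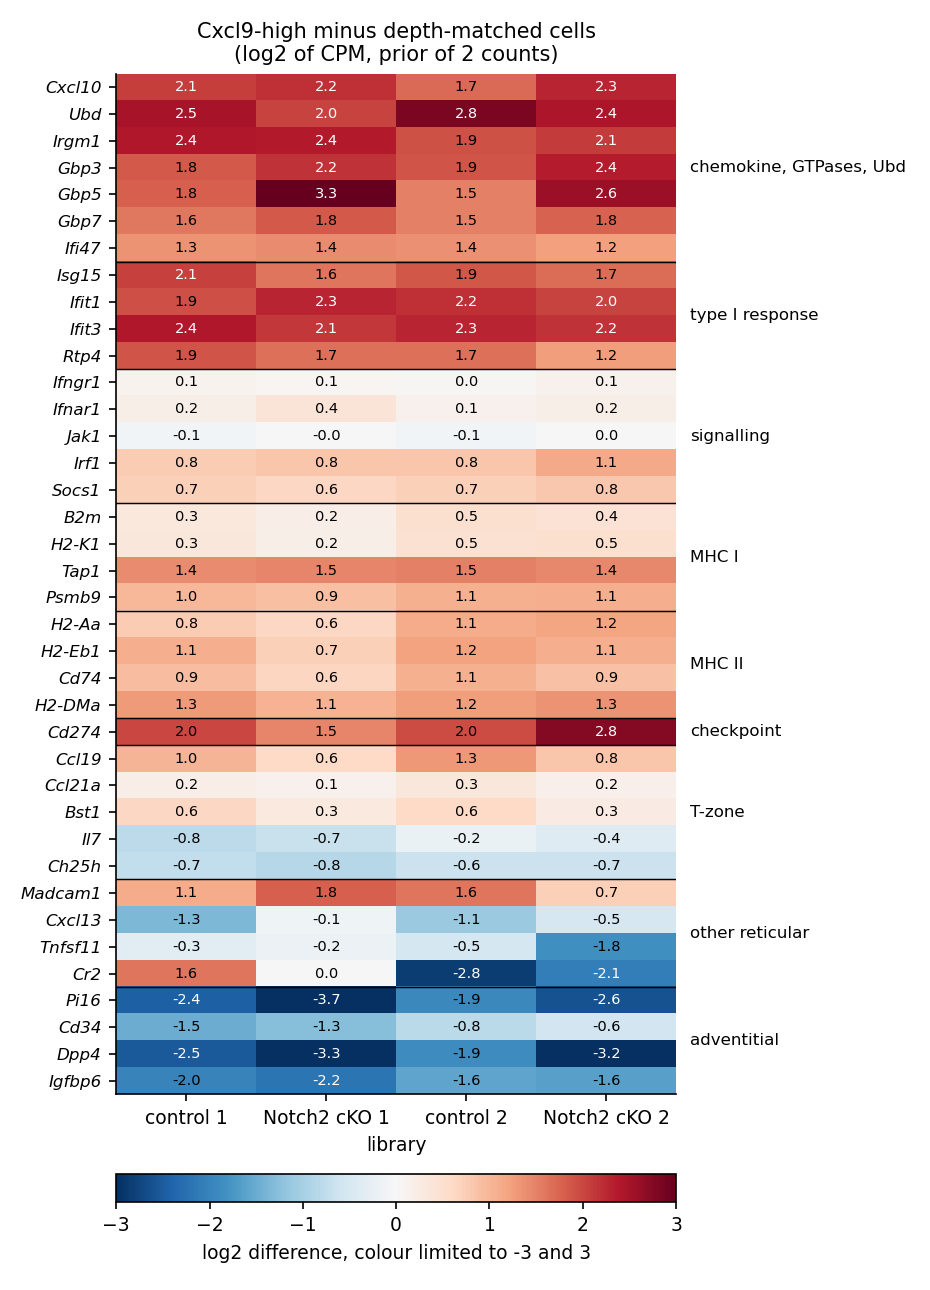
Log2 difference in CPM (colour and number) between Cxcl9-high cells and depth-matched mesenchymal cells for genes of each role (rows, by role) in each library (columns). Interferon targets are red in every library, receptors and Jak1 near 0, and adventitial genes blue.

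Genes of position and niche divided the members from their matched cells in several directions. Of 20 T cell niche factors 7 were higher and 5 lower (median 0.00). Ccl19, the chemokine whose promoter drives the Cre, had 8586, 1588, 7305 and 3096 CPM in members and 4256, 1056, 2959 and 1752 in matched cells (0.94, SE 0.08). Ccl21a had 13490, 10510, 10220 and 13390 CPM against 11820, 9637, 8108 and 11980 (0.20, SE 0.04), a small difference in 4 of 4 libraries. Il15, a cytokine for memory T and NK cells, was higher (0.75, SE 0.12). Il7 had 113, 128, 120 and 120 CPM against 193, 202, 137 and 157 (-0.45, SE 0.08), and the chemokine Cxcl12 (-0.46, SE 0.07) and the enzyme of 25-hydroxycholesterol synthesis Ch25h (-0.69, SE 0.08) were lower too.

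Markers of other reticular subsets were mostly lower. Cxcl13, the B cell chemokine, had 150, 357, 954 and 1269 CPM in members against 382, 394, 2066 and 1813 (-0.77, SE 0.13), and Tnfsf11, the marginal reticular cytokine RANKL, lay at -0.93 (SE 0.19). Of 6 follicular dendritic markers 4 were lower and Clu was higher. Of 9 adventitial markers 6 were lower, Pi16 with 5.77, 9.60, 10.1 and 1.90 CPM against 32.6, 132, 39.5 and 12.9 (-2.50, SE 0.19), and Ly6a was higher. Madcam1, an adhesion molecule of marginal reticular cells and vessels, went the other way with 89.2, 18.1, 79.8 and 11.2 CPM against 41.4, 5.04, 25.9 and 6.70 (1.33, SE 0.13). The vessel mucin Glycam1 moved with it at 79.3, 2.82, 83.7 and 9.11 CPM against 37.8, 2.80, 14.8 and 7.16 (1.64, SE 0.27). The blood endothelial list, which holds Glycam1 itself (151 of its 512 UMIs in control 1 members and 1160 of 3226 in control 2), summed to 263, 203, 226 and 242 CPM (unscaled) in members and 168, 171, 119 and 212 in matched cells, with Kdr at 0 UMIs in members of all 4 libraries, and its part in the Madcam1 and Glycam1 values was not tested.

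Shares of members were also counted among cells with a subset marker, all thinned to 2000 UMIs. Of Madcam1-positive cells 20.2% (of 263), 18.8% (of 64), 11.1% (of 423) and 5.45% (of 110) were members in library order, against 6.76%, 3.89%, 3.29% and 2.94% of the rest. Of cells with 3 or more Ccl19 UMIs 9.18%, 6.41%, 5.07% and 4.61% were members, against 2.85%, 2.96%, 2.02% and 1.76% of the rest. Of cells with 3 or more Cxcl13 UMIs 2.16%, 5.39%, 2.47% and 1.84% were members, against 7.90%, 3.93%, 3.76% and 3.32%, so batch 1 Notch2 cKO differed from the other 3 libraries in direction. Of Pi16-positive cells 2 of 54, 0 of 305, 2 of 267 and 3 of 124 were members, where 0 of 305 allows a share of up to 1.20% (upper limit of the interval).

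**Figure D4:**
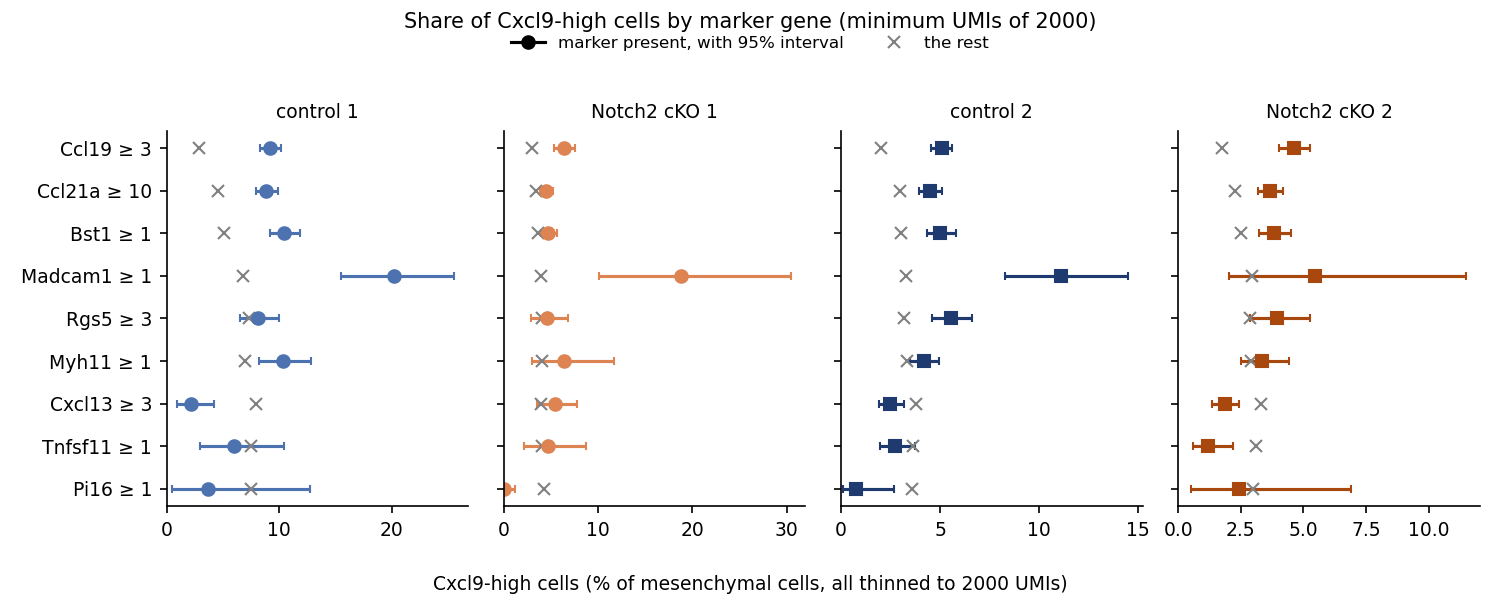
Share of Cxcl9-high cells (percent, x axis, each panel on its own scale) among mesenchymal cells with the marker gene named at left (filled symbols with 95% Clopper-Pearson intervals) and among the rest (crosses), all cells thinned to 2000 UMIs, 1 panel per library. Ccl19 and Madcam1 lie to the right of their crosses in every library, and Cxcl13 to the left in 3 of 4.

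Notch2 cKO was next compared with control within the members. The rule did not use genotype, but it held members of both genotypes to the same Cxcl9 and interferon terms. The edgeR fit included batch (quasi-likelihood, 1 residual degree of freedom). With so little left per gene, its p-values rest largely on variability shared across genes. A low one can come from few cells: Krt18, whose 258 UMIs in Notch2 cKO 2 lay in 2 members, had an adjusted p = 4.31e-11 by edgeR. Of 13156 genes, 341 (2.59%) rose and 361 (2.74%) fell at an adjusted p under 0.05, and 664 of these 702 moved alike in batches 1 and 2. The calls were made on these same batches, so that agreement is no independent support. Scaled by library size alone, the split was 304 higher and 185 lower. Without the batch term no gene passed by edgeR, although 249 were higher and 238 lower at an unadjusted p under 0.05. DESeq2, fitted with the term, called 168. Leaving out any 1 library, which leaves no room for the term, gave 0 calls by edgeR each time, with 130 to 263 lower and 161 to 231 higher at an unadjusted p under 0.05. Calls below therefore rest on the batch term, and the number of 8 alternatives keeping that term in which a gene passed is given for the genes described here where it was not all. Fewer members of a kind and less RNA per cell cannot be told apart in these sums.

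Notch genes fell in the Notch2 cKO members. Notch2 (ENSMUSG00000027878, mm10 chromosome 3, 98013527 to 98150361) had 39.4 and 52.1 CPM in controls and 14.7 and 34.2 in Notch2 cKO (batches 1 and 2), a log2 fold change of -0.93 (SE 0.27, adjusted p = 0.0149 by edgeR), and passed in 1 of 8 alternatives. Since the floxed exons are not named in the labels, 3′-end counts are no measure of the deletion. Of 13 Notch receptors, ligands and targets 6 fell, Jag1 in 1 of 8 alternatives and Hey2 in 5 of 7, and 1 rose (median -0.93, against 0.01 over all genes). Notch3, a related receptor, fell from 201 and 215 CPM to 27.7 and 74.8 (-2.13, SE 0.29). The transcriptional repressor Hes1, a standard Notch target, fell from 218 and 200 to 75.6 and 51.8 CPM (-1.76, SE 0.28), and Heyl, another target, from 18.4 and 17.4 to 3.95 and 7.05 (-1.58, SE 0.35, 4 of 8 alternatives). The ligand Dll4 rose from 5.77 and 12.0 to 71.1 and 43.5 CPM (2.41, SE 0.29, 7 of 8).

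The interferon-gamma chemokine and GTPase genes showed little common change between genotypes. Of 16 tested, 2 rose (Gbp10, passing in 1 of the 7 alternatives that tested it, and Ciita, in 0 of 7) and none passed as lower by edgeR (median 0.02), beside 2.59% and 2.74% of all genes. Cxcl10 had 2389 and 2460 CPM in controls and 2696 and 1545 in Notch2 cKO (-0.27, SE 0.41, adjusted p = 0.994 by edgeR). Irgm1 had 116 and 94.5 CPM against 156 and 50.8 (-0.27, SE 0.27), higher in batch 1 and lower in batch 2. Irf1 lay at 0.13 (SE 0.34) and Cd274 at 0.46 (SE 0.29). With SEs of 0.27 to 0.41 these data could not show differences of that order, and a missed threshold does not show that the genotypes were alike. Members of both genotypes had to meet the same Cxcl9 and interferon terms. This comparison therefore cannot show whether the interferon state differs between genotypes. Among the genes of the rule, given without a test, Cxcl9 had 4593 and 2527 CPM in controls and 4184 and 1960 in Notch2 cKO, and Serpina3f 331 and 188 against 85.8 and 173.

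Among 20 type I interferon targets, 3 fell and none rose (median -0.36). Isg15 fell from 162 and 117 to 68.3 and 60.9 CPM (-1.10, SE 0.27, adjusted p = 0.00144 by edgeR, 4 of 8 alternatives). Ifi27l2a, a small interferon-induced protein, fell from 166 and 186 to 111 and 47.6 CPM (-1.31, SE 0.28, 5 of 8), and Rtp4, a chaperone-like protein, from 25.7 and 19.9 to 13.0 and 9.58 (-1.05, SE 0.31, 3 of 8). Ifit1 and Ifit3 did not pass, at -0.44 (SE 0.28) and -0.16 (SE 0.30), with opposite signs in the batches.

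MHC class II genes rose together in the Notch2 cKO members, whereas 0 of 20 class I genes passed the edgeR test (median -0.09, with 0 higher and 1 lower at an unadjusted p under 0.05). Of 9 class II genes 8 rose and Ctss, the protease that trims the invariant chain, fell (median 1.29; Ctss passed in 2 of 8 alternatives). H2-Aa, the I-A alpha chain, rose from 103 and 66.3 to 401 and 232 CPM (1.86, SE 0.29, adjusted p = 3.18e-08 by edgeR). H2-Eb1, a class II beta chain, rose from 167 and 89.2 to 484 and 286 (1.59, SE 0.30), and Cd74, the invariant chain, from 682 and 438 to 1756 and 1404 (1.51, SE 0.37, 7 of 8 alternatives). H2-DMb1 passed in 2 of 8 alternatives, H2-Ab1 in 3, H2-DMa in 5, H2-DMb2 in 7 of 7 and Ciita in 0 of 7. At 2000 UMIs per cell H2-Aa was detected in 17.2% and 9.32% of control members and in 42.6% and 28.5% of Notch2 cKO members. Of the 17733 Cd74 UMIs in members of Notch2 cKO 2, 765 lay in the 30 members with a UMI of the narrower macrophage, dendritic and B cell genes above, and of the 3110 in Notch2 cKO 1, 18 lay in 2 such members. Those narrower genes were chosen after their values were seen, so these counts set no bound on Cd74 from other cells. The class II genes stood apart by genotype in depth-matched cells as well, H2-Aa by 1.90 and Cd74 by 1.75, which rest on the same libraries. Of the 9 class II genes 0 passed edgeR's test of a difference between the cell sets, with 0 higher and 1 lower at an unadjusted p under 0.05. With every member that carried a UMI of a leukocyte list left out (373 and 410 Notch2 cKO and 558 and 751 control members kept), 3 of the 8 rising genes passed (H2-Aa, H2-Eb1, H2-DMb2), and all 8 stayed higher in Notch2 cKO.

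Of 16 inflammatory genes 6 fell (Il6, Lif, Cxcl2, Cxcl5, Ccl11, Csf3) and 1, the chemokine Cx3cl1, rose (median -0.73), and Cx3cl1 passed in 3 of 8 alternatives, Lif in 5, Cxcl5 and Ccl11 in 4 and Csf3 in 4 of 6. Of 20 T cell niche factors 3 fell (Ccl19, and Il6 and Lif again) and Dll4 rose (median 0.03). Ccl19 fell from 8586 and 7305 to 1588 and 3096 CPM (-1.85, SE 0.49, adjusted p = 0.00477 by edgeR, 4 of 8 alternatives). Il6, an inflammatory cytokine, had 90.8 and 328 CPM in controls and 60.4 and 60.2 in Notch2 cKO (-1.61, SE 0.30, 6 of 8), so most of its change lay in batch 2. Cxcl2, a neutrophil chemokine, fell from 406 and 460 to 107 and 181 CPM (-1.64, SE 0.31). Ccl21a, Il7 and Pdpn did not pass, at -0.00 (SE 0.54), 0.07 (SE 0.27) and 0.33 (SE 0.27). Cxcl13 had 150 and 954 CPM against 357 and 1269 (0.80, SE 0.34, adjusted p = 0.212).

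Several matrix and adhesion genes were among the genes with large changes. The list of 18 genes described as the Notch2 cKO matrix state was chosen on these same samples, so its 11 rises and 7 falls are not independent evidence. Cilp, a matrix protein known from cartilage, had 15.8 and 23.3 CPM in control members, and 690 and 369 once Notch2 was targeted (4.60, SE 0.35). The adhesion molecule Ncam1, best known from neurons, rose from 4.20 and 12.8 to 155 and 118 CPM (3.80, SE 0.30), and Cxcl14, a chemokine, from 19.9 and 4.04 to 86.4 and 74.9 (3.25, SE 0.30). Adamtsl2, a matrix glycoprotein, had 0 and 9 UMIs in the controls and 106 and 309 in Notch2 cKO. Igfbp2, a binding protein of insulin-like growth factors, fell from 101 and 100 to 0.565 and 16.0 CPM (-3.50, SE 0.30, 7 of 8 alternatives), and Ptn, the growth factor pleiotrophin, from 163 and 215 to 15.8 and 46.2 (-2.71, SE 0.29). Of 22 extracellular matrix genes outside that list 4 rose and 3 fell (median 0.07).

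Glycam1 and Madcam1 fell as well, whereas the blood endothelial genes Plvap and Cd36 did not pass. Glycam1 fell from 79.3 and 83.7 to 2.82 and 9.11 CPM (-3.63, SE 0.30), and Madcam1 from 89.2 and 79.8 to 18.1 and 11.2 (-2.63, SE 0.28), and both passed in 8 of 8 alternatives. Glycam1 was detected in 75 of 614 and 197 of 1470 control members and in 4 of 441 and 78 of 1010 Notch2 cKO members. Members with any UMI of the 6 endothelial genes above numbered 6 of 614 in control 1 and 60 of 1470 in control 2. They held 1 of 151 and 90 of 1160 Glycam1 UMIs. Those 6 genes had too few counts for the edgeR test here, and the rule excludes cells with a Pecam1 UMI. These counts therefore set no bound on Glycam1 from other cells. Of 9 adventitial markers 4 rose (Ly6a and Ackr3 in 8 of 8 alternatives, Dpt in 5, Ly6c1 in 2), Ly6a from 154 and 150 to 474 and 505 CPM (1.67, SE 0.31), while Pi16 lay at 0.71 in batch 1 and -2.26 in batch 2.

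**Figure D5:**
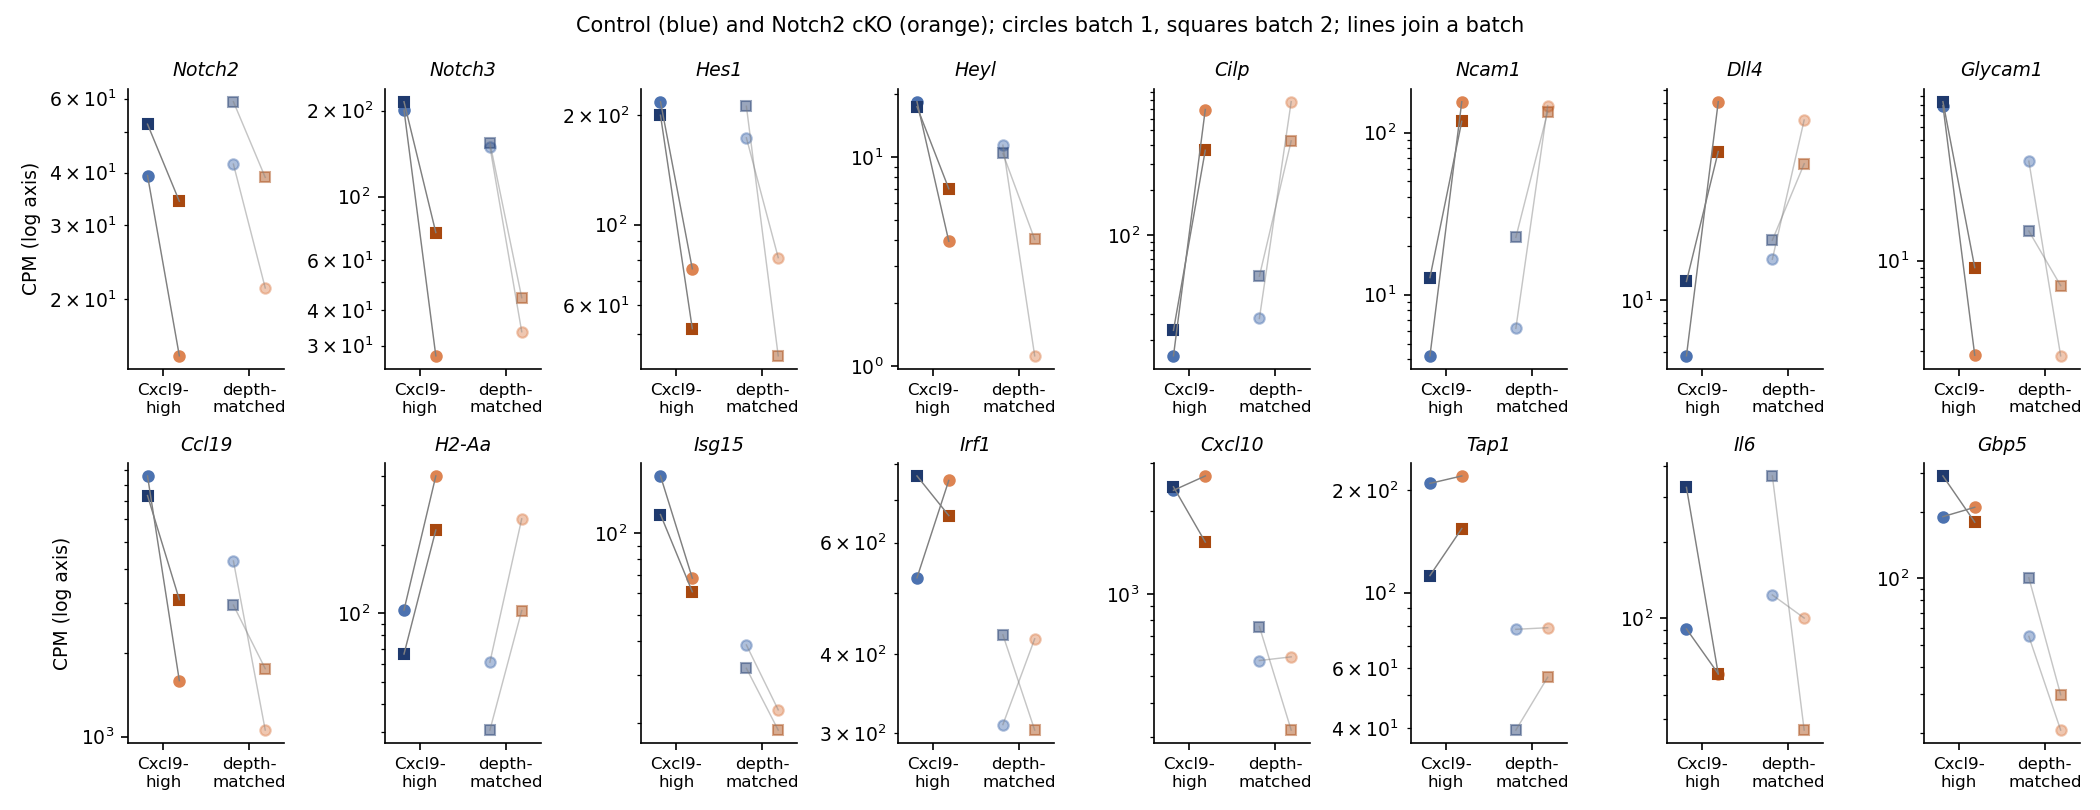
CPM (log axis) of 16 genes in Cxcl9-high cells and in depth-matched cells, control (blue) against Notch2 cKO (orange), with lines joining the libraries of a batch. Notch3, Hes1, Ccl19, Glycam1 and Isg15 fall and Cilp, Ncam1, Dll4 and H2-Aa rise in the Cxcl9-high cells of both batches, whereas the Cxcl10 and Gbp5 lines there run in opposite directions.

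Whether the genotype effect in members differed from that in all other mesenchymal cells was tested as an interaction, with library as a block. Of 15616 genes 67 (0.429%) had a higher and 84 (0.538%) a lower effect in members by edgeR. Against depth-matched cells 52 passed, and without the block none did, with 9 higher and 12 lower at an unadjusted p under 0.05. Of 17 interferon-gamma chemokine and GTPase genes 3 passed (median 0.18). Gbp5 had 190 and 290 CPM in control members and 209 and 179 in Notch2 cKO members, against 50.5 and 98.3, and 28.4 and 39.3 in other cells, a difference of effects of 0.79 (SE 0.15, adjusted p = 1.71e-05). Ubd went the other way with -0.58 (SE 0.14), and Ido1 had almost no UMIs. Against depth-matched cells Gbp5 passed again (1.15, adjusted p = 0.00115 by edgeR), and Ubd did not pass (-0.40, adjusted p = 0.633). Members of both genotypes were held to the Cxcl9 and interferon terms of the rule, and the comparison cells did not meet all of them. The part of this selection in the differences of interferon genes was not tested.

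Several Notch2 cKO genes showed a larger effect in members. Cilp had 15.8 and 23.3 CPM in control members against 35.3 and 43.1 in other cells, and 690 and 369 against 785 and 358 in Notch2 cKO (difference of effects 0.92, SE 0.18, and 0.95 against matched cells with adjusted p = 0.00115). Ackr3, a scavenging receptor of CXCL12, differed by 0.91 (SE 0.17), and Fgf23, a phosphate-regulating hormone, by 1.77 (SE 0.23). Fn1, fibronectin, had 1540 and 1018 CPM in control members and 589 and 580 in Notch2 cKO members, against 988 and 661, and 1184 and 469 in other cells (-0.93, SE 0.17, and -0.72 with adjusted p = 0.194 against matched cells).

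The 6 lowest p-values of this test belonged to Ighg2b, Igkc, Krt18, Krt19, Car3 and Glycam1, and in 5 of these, 1 or 2 cells held a large part of the UMIs of a library. Of the 194 UMIs of the antibody gene Ighg2b in members of control 2, 193 lay in 1 cell, and of the 736 of Igkc 289 did. All 258 Krt18 and 222 Krt19 UMIs of the keratin genes in members of Notch2 cKO 2 lay in 2 cells. Of the 116 UMIs of Car3, a carbonic anhydrase, in members of control 1, 102 lay in 1 cell. Glycam1 was spread, with at most 12 of 151 and 81 of 1160 UMIs in 1 control cell.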

How the data were processed

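The deposited files are filtered feature-barcode matrices of UMI counts, made by the authors with Cell Ranger on mm10, which is version 5.0.1 for batch 1 and 7.1.0 for batch 2 per the file headers, while only 5.0.1 is named in the submitters' processing notes. That difference and the depth gap cannot be told apart from batch. Barcodes under 500 genes or 1000 UMIs, or above 10% mitochondrial UMIs, were dropped, and no doublet caller was run. The rule was applied to raw UMIs. Raw UMIs were summed per library over members, over all other mesenchymal cells and over other mesenchymal cells matched 1 to 1 on total UMIs.

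Sums were tested with edgeR 4.0.16 (quasi-likelihood, TMM, its default filter on low counts, Benjamini-Hochberg 0.05) in R 4.3.3, with DESeq2 1.42.0 as an alternative. The script was tested on simulated data. Shares were compared by exact permutation (SciPy 1.17.1), with library as the unit. Batch served as a block because the labels give it, and same-batch libraries deviated together from their group means (Pearson's r = 0.735 across 6411 genes at 20 CPM or more, which are not independent replicates).

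The members and gene lists were chosen with earlier results of these data known. The genes named are the 12 largest changes per direction among those passing with 1 sign in all libraries or batches, up to 4 genes with the lowest p per list, 15 fixed genes, and the 6 with the lowest p for the difference of genotype effects; others were named after their values were seen. Ranked genes with no role in the lists are not all described. Leukocyte markers that stroma also expresses (Xbp1, Rora, Cd68, Fscn1, Il7r, Sdc1) were not used to leave out members. Some results are not reported here.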

Additional observations from a re-analysis of the deposited data

Results flagged for a closer look

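Of 29 genes followed in this comparison, 24 had an effect of Notch2 cKO in Cxcl9-high cells that differed from that in other mesenchymal cells. The test was of the difference itself (edgeR interaction term, adjusted p under 0.05), and 151 of all 15616 genes tested passed it. The genes with the lowest p-values of this test were among those followed. The 24 of 29 is therefore a product of selection and no measure of how common such differences are. Of the 24, 13 passed again with depth-matched cells as the comparison. Values are differences of log2 effects, and a positive value means a higher effect in Cxcl9-high cells.

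Among matrix, adhesion and growth factor genes the difference was 0.92 for Cilp, 0.88 for Ncam1, 0.85 for Ecrg4, 0.94 for Mgp, 0.71 for Fbln2, 0.73 for Dpt, 1.77 for Fgf23, -0.93 for Fn1 and -0.88 for Col14a1. It was 0.82 for the Notch ligand Dll4 and 0.91 for the scavenging receptor Ackr3. Against depth-matched cells Cilp (0.95), Ecrg4 (0.94), Fbln2 (0.68), Dpt (0.52), Fgf23 (2.01) and Ackr3 (0.86) passed again, and Ncam1, Mgp, Fn1, Col14a1 and Dll4 did not.

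Among interferon genes the difference was 0.79 for Gbp5, -0.58 for Ubd and -0.56 for Ifi27l2a, of which Gbp5 passed against depth-matched cells (1.15) and Ifi27l2a stood at -0.06 there. The part of the rule's own interferon terms in these differences was not tested. The chemokine Cx3cl1 differed by -0.67, the marginal reticular cytokine Tnfsf11 by -1.39, Madcam1 by -1.01 and Glycam1 by -2.84. Against depth-matched cells Tnfsf11 passed (-1.12), although without Notch2 cKO replicate 2 its difference from other mesenchymal cells turned to 0.31, and Cx3cl1 (-0.80), Madcam1 (-0.55) and Glycam1 (-1.74) did not.

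The other differences belong to genes in which 1 or 2 cells held a large part of the UMIs of a library. Igkc was nonetheless found in 188 of 1470 members of control 2, with 39.3% of its UMIs there in 1 cell. These differences were -10.71 for Ighg2b, -3.36 for Igkc, 6.60 for Krt18 and 8.96 for Krt19 (-1.35 and -0.42 without Notch2 cKO replicate 2). They were -3.55 for Car3 and -2.93 for the histone gene Hist1h2ap, of whose 427 UMIs in members of control 2 228 lay in 1 cell.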

How the results depend on the processing

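The difference in the share of Cxcl9-high cells (-0.90 percentage points) kept its sign under the alternative thresholds, filters and thinning (-0.33 with the deepest cells left out, where batch 2 gave 0.02, to -2.58 with the stricter cell filter), but reversed to 0.89 without Notch2 cKO replicate 1 and to 0.44 without control replicate 2 (range -2.69 to 0.89 over libraries left out). Against depth-matched cells 1522 genes passed, 2688 with all other mesenchymal cells, 790 by DESeq2, 904 with no filter on low counts and 892 to 1320 with 1 library left out. Without the replicate block 3 passed, with 208 higher and 112 lower at an unadjusted p under 0.05. Within members 702 genes passed between genotypes, 168 by DESeq2, 87 after thinning to 2000 UMIs, 353 with the stricter cell filter, 258 with the deepest cells left out and 140 with leukocyte-marker members left out. Without the replicate block 0 passed by edgeR, and 0 with any library left out (0 to 0). Scaling by library size alone gave 304 higher and 185 lower in place of 341 and 361, with the median of all genes shifted by 0.10. The difference of effects held for 151 genes, for 52 against depth-matched cells, 254 with library size alone, 0 without the replicate block and 73 to 118 with 1 library left out. With 1 library left out the genotype change of Icosl ranged from -1.74 to 0.048, and the differences of effects from -1.35 to 7.16 for Krt18, -0.42 to 11.4 for Krt19 and -1.79 to 0.31 for Tnfsf11, each reversing without Notch2 cKO replicate 2. The causes were not tested. With 2 pools per group, and batch 1 at a fraction of the depth of batch 2, small changes of genes with few UMIs are the hardest to detect.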
